A study of Mus musculus with 6 samples.

Results

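Epithelial-mesenchymal transition (EMT) regulators were followed as 10 genes in the deposited tables: the transcription factors Snai1, Snai2, Twist1, Twist2, Zeb1, Zeb2 and Elf3, the cadherin genes Cdh1 and Cdh2, and the intermediate filament gene Vim. They were selected by gene symbol, and each symbol matched 1 row, giving 10 of the 54446 genes in each library. EMT is the programme by which cells joined in a sheet by E-cadherin give up those junctions and acquire a motile, vimentin-rich mesenchymal form. SNAIL, ZEB and TWIST factors drive it, and SNAIL and ZEB proteins repress Cdh1 by binding E-box sequences in its regulatory DNA. ELF3 is an ETS family factor typical of epithelia, and in carcinomas the programme is linked to invasion and to stem-like traits.

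The cells were of the mouse Lewis lung carcinoma line, wild type per the labels and described there as stem-like. They were kept in medium with 2% fetal bovine serum and were either left untreated (Control, 3 libraries) or exposed to RT-MPs (3 libraries), an abbreviation left unexplained in the labels, and both groups carry the time 48 h. The labels do not say whether replicates came from separate cultures, and the p-values therefore reflect spread between the 6 libraries alone, which may be technical. Levels are FPKM, fragment counts divided by gene length and by the library's read total, so they can be compared between genes.

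The third RT-MPs library differed most from the rest, with correlations of 0.959 to 0.969 to the other 5 over log2(FPKM + 1), against 0.984 to 0.993 among those 5. In that library Gm42418, Gm26917, Gm23935, Lars2 and Rn7sk, 5 genes that hold or resemble ribosomal or abundant noncoding RNA and were chosen after their values were seen, held 6.56% of reads in genes, against 0.148% to 0.175% elsewhere. The read totals implied by the deposited values were 16950940 to 21876505 per library. Called members, and the counts of called genes in each pathway list, are given with and without it.

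In untreated cells Vim, the SNAIL, TWIST and ZEB members and Elf3 were expressed, and both cadherin genes were near or below the limit of detection. Vim was the most abundant member at 933.3 ± 18.8 FPKM (SD, n = 3), followed by Twist1 at 29.1 ± 0.652, Snai2 at 19.9 ± 2.00, Snai1 at 9.97 ± 0.50 and Twist2 at 9.75 ± 0.711 FPKM. Zeb1 at 6.79 ± 0.113, Zeb2 at 4.53 ± 0.124 and Elf3 at 2.96 ± 0.197 FPKM came next. Of these neighbours in the Control order, only Snai1 and Twist2 had overlapping library values. In RT-MPs libraries Snai1 stood above Snai2, and the overlapping neighbours among these 8 were Snai2 with Twist2, Zeb1 with Elf3, and Elf3 with Zeb2.

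Both classical cadherins of the EMT switch were at the floor of the data. Cdh1, which encodes E-cadherin of epithelial junctions, had 2, 1 and 3 reads in Control replicates 1 to 3 and 3, 2 and 0 reads in RT-MPs replicates 1 to 3. These reads correspond to 0 to 0.034 FPKM, and 3 reads in this gene correspond to 0.030 to 0.0387 FPKM, so no fold change is given. Cdh2, which encodes the N-cadherin of mesenchymal and neural cells, had 0 reads in all 6 libraries, where a count of 0 allows up to 0.017 to 0.0219 FPKM, for counting error only. None of 10 housekeeping genes was listed at 0 in any library. Cdh1 and Cdh2 were not tested, and the other 8 members, each above 1 FPKM in all 6 libraries, entered the test across 11915 genes.

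Snai2, the gene of the zinc finger repressor SLUG, fell in RT-MPs-treated cells, and Elf3 rose. Of the 8 tested members 2 were called by limma at a Benjamini-Hochberg adjusted p of 0.05, 1 in each direction. The same rule called 3.99% of all tested genes, 1.29% higher and 2.70% lower, a split of 154 to 322 genes that became 225 to 140 under median-ratio scaling. Without RT-MPs replicate 3 it called 3 of the 8, with Snai1 added as higher, while 21.4% of all tested genes were called. The groups did not overlap in 3 of the 8 members, Snai1, Snai2 and Elf3, against 40.0% of all tested genes, so that count is near the background. The median log2 change of the 8 members was 0.0011 and that of all tested genes was -0.09.

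Snai2 (chr16:14705852-14709385, plus strand, mm10, protein-coding) had 21.8, 17.8 and 20.2 FPKM in Control replicates 1 to 3 and 11.2, 10.6 and 9.28 FPKM in RT-MPs replicates 1 to 3. Every treated library lay below every untreated one. The reads behind these values were 914, 678 and 787 in Control and 493, 391 and 318 in RT-MPs. The log2 change of FPKM + 1 was -0.88 (SE 0.10, limma adjusted p = 0.0207), with a 95% interval from -1.12 to -0.65. Only 0.26% of tested genes had a change as low or lower, and without RT-MPs replicate 3 the change was -0.81 (adjusted p = 0.00618). The call was lost without Control replicate 1, 2 or 3 or RT-MPs replicate 2 (adjusted p = 0.147, 0.0541, 0.167 and 0.0801), where the change stayed between -0.96 and -0.82. In those fits limma called 0, 2, 0 and 10 of all 11915 tested genes, so the loss is not particular to Snai2.

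Snai1 (chr2:167538195-167542814, plus strand), which encodes the SNAIL repressor itself, had values in the opposite order. It had 9.59, 10.5 and 9.78 FPKM in Control and 13.7, 14.1 and 20.4 FPKM in RT-MPs. The groups did not overlap, and the highest treated value was that of the library that stood apart. The log2 change was 0.62 (SE 0.15), with an interval from 0.27 to 0.97, and it did not pass the test (limma adjusted p = 0.0633). Without RT-MPs replicate 3 Snai1 was called higher at 0.44 (SE 0.05, adjusted p = 0.00766).

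Elf3 (chr1:135253575-135258568, minus strand) had 3.07, 2.74 and 3.08 FPKM in Control and 4.35, 4.03 and 5.19 FPKM in RT-MPs. All treated libraries lay above all untreated ones, on 114 to 141 reads in Control and 163 to 211 in RT-MPs. The log2 change of 0.47 (SE 0.10, interval 0.24 to 0.71) lay at the threshold, with a limma adjusted p of 0.0496. The call was lost without any 1 of Control replicates 1 to 3 or RT-MPs replicates 1 and 2 (adjusted p between 0.0922 and 0.22). In those fits, in that order, limma called 0, 2, 0, 74 and 10 of all 11915 tested genes. The call was made without RT-MPs replicate 3 at 0.39 (adjusted p = 0.0163). Elf3 also missed the threshold by a little under median-ratio scaling (adjusted p = 0.0518) and quantile normalization (0.0503).

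**Figure D1:**
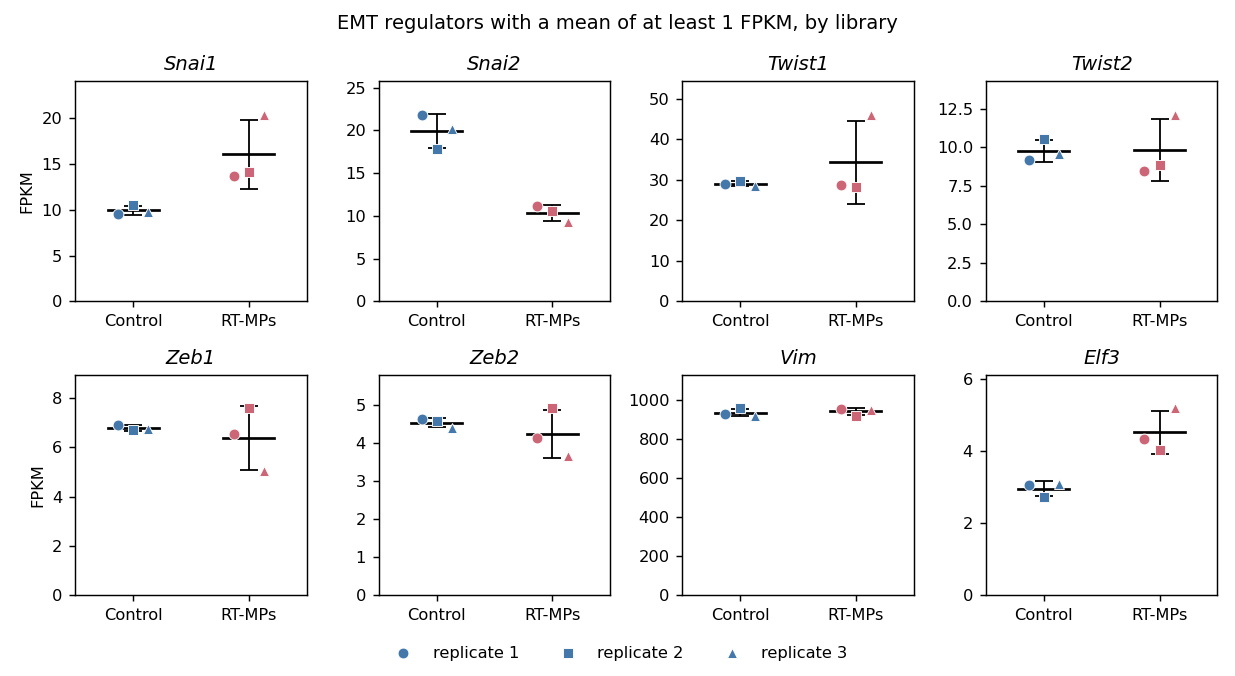
FPKM of the 8 regulators with a mean of at least 1 FPKM in each library, by group, on axes that start at 0. Points are libraries, shaped by replicate number, and bars are the mean and SD of 3. All treated libraries lie below the untreated ones for Snai2 and above them for Snai1 and Elf3, and RT-MPs replicate 3 is the highest point for Twist1 at 46.1 FPKM.

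The promoters of Snai1 and Elf3 are shown because these were the members with higher values in every treated library and because both carry the SNAIL-type E-box. The letters searched were CAGGTG and their reverse complement CACCTG, so both strands were covered and the pair cannot overlap as distinct sites. The windows are the 250 bases before the RefSeq start site on GRCm38.p6, the assembly of mm10, written 5′ to 3′ on the gene's strand with the motif in capitals. They span chr2:167537945-167538194 (plus strand) for Snai1 and chr1:135258473-135258722 (minus strand) for Elf3. Gene spans given here are from GENCODE M21, where Elf3 reaches 135258568, so part of its window lies inside that span.
Snai1: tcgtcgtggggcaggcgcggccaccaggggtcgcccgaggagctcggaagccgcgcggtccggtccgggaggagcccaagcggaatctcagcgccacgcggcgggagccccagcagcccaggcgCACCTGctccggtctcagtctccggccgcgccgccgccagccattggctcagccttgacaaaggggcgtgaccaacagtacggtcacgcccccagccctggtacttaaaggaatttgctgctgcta
Elf3: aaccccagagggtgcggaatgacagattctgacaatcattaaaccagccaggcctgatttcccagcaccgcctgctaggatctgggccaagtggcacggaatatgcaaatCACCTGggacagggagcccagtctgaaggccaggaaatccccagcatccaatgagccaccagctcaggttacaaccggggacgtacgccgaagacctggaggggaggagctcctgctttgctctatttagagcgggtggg
The motif begins 126 bases before the RefSeq start in Snai1 and 140 bases before the RefSeq start in Elf3, once in each. Windows were at hand for 6 members, and none for Snai2, Zeb1, Cdh1 or Cdh2. Those of Twist1, Twist2, Zeb2 (4 windows) and Vim held no match. The Vim window and some Zeb2 windows lie inside the gene spans given here. Of all 32851 promoter windows of this length 17.2% held the motif, and of the 10842 windows of tested genes 14.5% did. A match describes the letters only and is not evidence of binding. Snai1 and Elf3 were chosen for display by both their values and the motif, so their sharing of these is not a result.

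TWIST factors are basic helix-loop-helix proteins that bind E-boxes with E-protein partners. Twist1 (chr12:33957671-33959829, plus strand) had 28.9, 29.8 and 28.5 FPKM in Control and 28.6, 28.2 and 46.1 FPKM in RT-MPs. Replicates 1 and 2 of the treated group lay within or just below the Control range, and replicate 3 alone was high. The log2 change was 0.20 (SE 0.18, limma adjusted p = 0.508) and it was -0.03 without that library, with an interval from -0.12 to 0.06. Twist2 (chr1:91801461-91848028, plus strand) had 9.17, 10.5 and 9.53 FPKM in Control and 8.44, 8.84 and 12.1 FPKM in RT-MPs. Here too replicate 3 was the highest of all libraries and replicates 1 and 2 the lowest. Its log2 change was -0.01 (SE 0.13, adjusted p = 0.977), and -0.16 without that library (adjusted p = 0.131). Twist2 is uncertain because 46.5% of its exon bases are shared with the antisense gene Gm29100, which had 188 to 233 reads against 512 to 652 for Twist2, and use of strand in the counting is not given in the sources used here.

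ZEB proteins are zinc finger and homeodomain repressors that maintain the mesenchymal state. Zeb1 (chr18:5591860-5775467, plus strand) had 6.92, 6.70 and 6.77 FPKM in Control and 6.52, 7.58 and 5.03 FPKM in RT-MPs. Zeb2 (chr2:44983632-45117395, minus strand) had 4.62, 4.58 and 4.39 FPKM in Control and 4.13, 4.90 and 3.66 FPKM in RT-MPs. In both genes the treated libraries spread on either side of the Control values, with replicate 2 highest and replicate 3 lowest. The log2 changes were -0.09 (SE 0.13) for Zeb1 and -0.09 (SE 0.10) for Zeb2, neither called by limma (adjusted p = 0.653 and 0.582). Their intervals ran from -0.40 to 0.21 and from -0.32 to 0.15.

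Vim (chr2:13573927-13582826, plus strand), the gene of the main intermediate filament of mesenchymal cells, had 927.4, 954.3 and 918.2 FPKM in Control and 952.0, 918.1 and 947.3 FPKM in RT-MPs. The groups overlapped, on 76161 to 98785 reads per library. The log2 change was 0.01 (SE 0.06, limma adjusted p = 0.933), with an interval from -0.13 to 0.15, and the narrower interval without RT-MPs replicate 3 ran from -0.08 to 0.09.

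**Figure D2:**
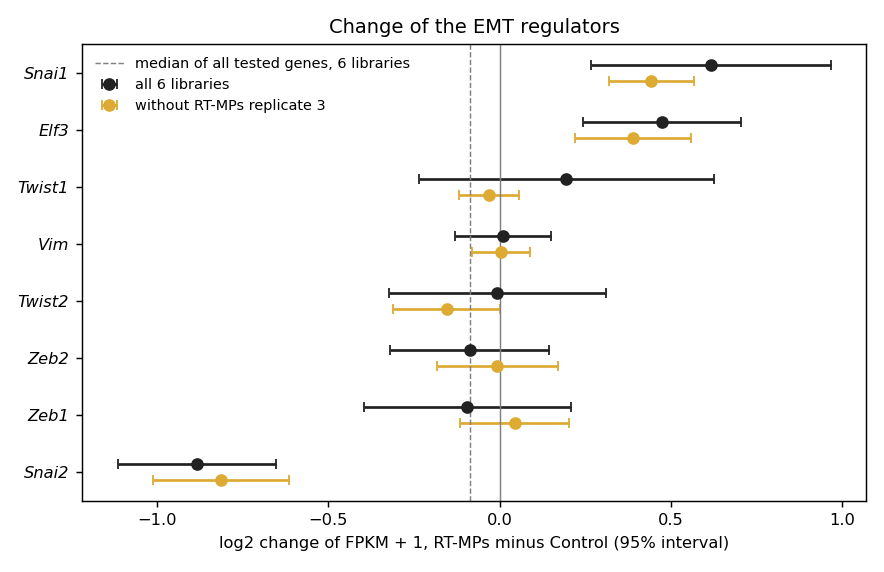
Log2 change of FPKM + 1, RT-MPs minus Control, for the 8 tested regulators with 95% intervals from limma, over all 6 libraries (black) and without RT-MPs replicate 3 (yellow). The dashed line is the median of all tested genes, -0.09. Snai2 lies at -0.88, Elf3 at 0.47 and Snai1 at 0.62, and the intervals of the other 5 cross 0 over all libraries.

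Ratios between members within a library do not depend on how that library was scaled. The ratio of Snai1 to Snai2 FPKM was 0.439, 0.590 and 0.485 in Control and 1.23, 1.33 and 2.20 in RT-MPs. Snai2 was thus the more abundant of the pair in every untreated library and Snai1 in every treated one. The ratio was 3.06-fold higher in RT-MPs (log2 difference 1.61, exact permutation p = 0.1, two-sided, the smallest that 3 against 3 allows). Since Snai1 was higher and Snai2 lower in every treated library, the ratio could not overlap. Its p therefore adds nothing to the values of the 2 genes. The difference between the groups was 1.35 on the log2 scale without RT-MPs replicate 3. The ratio of Snai2 to Vim was 0.0214 ± 0.00247 in Control libraries and 0.0110 ± 0.00106 in treated ones (n = 3 per group, exact permutation p = 0.1). Its lack of overlap likewise followed from the Snai2 values, as Vim varied little. The ratio of Zeb1 to Zeb2 was 1.501 ± 0.0396 in Control and 1.501 ± 0.110 in RT-MPs, and the groups overlapped (exact permutation p = 1, n = 3 in each group). A ratio of Cdh2 to Cdh1 was not computed because Cdh2 had no reads.

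**Figure D3:**
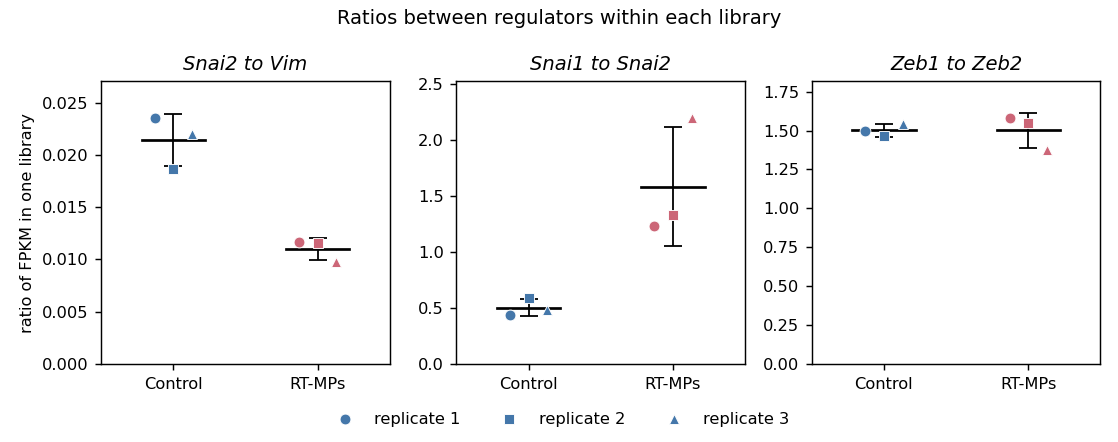
Ratio of FPKM between 2 regulators in each library, on axes that start at 0, with the mean and SD of 3 libraries per group and points shaped by replicate number. Snai1 to Snai2 lies between 0.439 and 0.590 in Control and between 1.23 and 2.20 in RT-MPs, whereas Zeb1 to Zeb2 overlaps between the groups.

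The members differed in how far RT-MPs replicate 3 departed from the other treated libraries. Relative to the mean of replicates 1 and 2 on the log2(FPKM + 1) scale, it was higher by 0.68 for Twist1, 0.52 for Snai1, 0.44 for Twist2 and 0.25 for Elf3. It was 0.02 for Vim, -0.21 for Snai2, -0.24 for Zeb2 and -0.41 for Zeb1. Over all tested genes the same difference had a median of 0.15 in 2614 genes with under 2000 exon bases and -0.29 in 1906 genes with 8000 or more. By GC content of the longest transcript the median was -0.27 below 45% and 0.14 at 55% or more. Snai1 and Twist1 have 1621 and 1628 exon bases and 59.8% and 59.3% GC, whereas Zeb1 and Zeb2 have 10266 and 19942 exon bases and 46.1% and 40.6% GC. Snai2 and Elf3 have 2021 and 2217 exon bases and 42.6% and 56.5% GC. Twist2 has 3174 and 52.6%, and Vim has 4743 and 46.5%, close to the GC content of Zeb1. The part of length and GC content in the members' values was not tested.

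**Figure D4:**
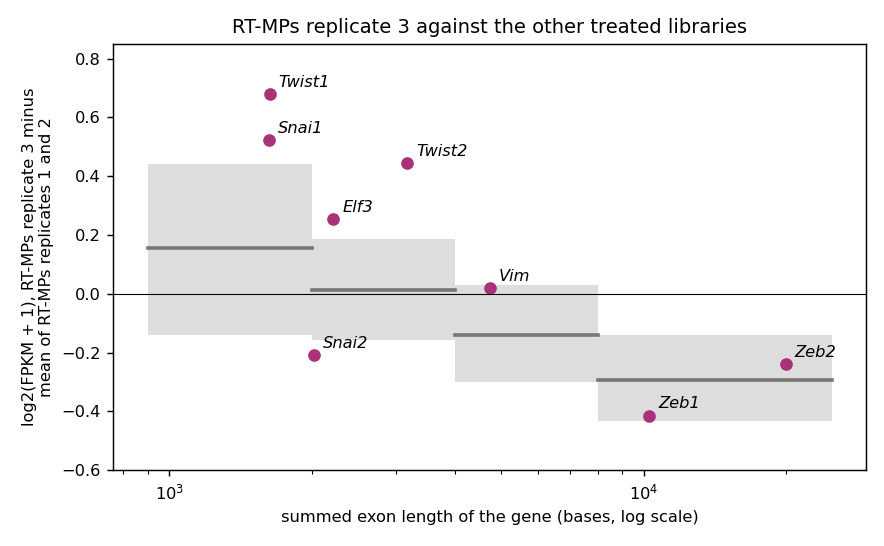
Difference in log2(FPKM + 1) between RT-MPs replicate 3 and the mean of RT-MPs replicates 1 and 2, against summed exon length on a log axis. Points are the 8 tested regulators, grey lines the medians and grey bands the middle 50% of all tested genes in 4 length ranges, the outer ranges drawn only in part. The medians go from 0.15 in the shortest range to -0.29 in the longest. Twist1, Snai1, Twist2 and Elf3 lie above the bands of their ranges, Snai2 lies below its band, and Vim, Zeb1 and Zeb2 lie within theirs.

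Genes whose levels followed the called members most closely were taken from tested genes with a mean of at least 5 FPKM, by Pearson correlation over the 6 libraries. The libraries share treatment and depth with each pair of genes, so the values are descriptions only. For Snai2 these were Sh2b3 (r = 0.998), Snx5 (r = 0.998) and the interferon-stimulated gene Ifit1 (r = 0.997). Their log2 changes were -0.35, -0.28 and -1.24. For Elf3 they were Slc48a1 (r = 0.986), Lcn2 (r = 0.985), the gene of the secreted iron-siderophore binder lipocalin 2, and Prr13 (r = 0.984). Their log2 changes were 0.22, 0.67 and 0.50.

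Other EMT transcription factors and their partners gave no called member among 11 tested of 18, with a median log2 change of 0.14, against -0.09 over all tested genes. By limma 3 of the 11 had an unadjusted p under 0.05, as had 3247 of all 11915 genes. Voom on recovered reads called 1 of the 11, against 800 of all 11910 genes. Without RT-MPs replicate 3, where 21.4% of all tested genes were called, 1 was called higher and 2 lower. The latter were the E-protein genes Tcf4 (-0.34, adjusted p = 0.0125) and Tcf12 (-0.32, adjusted p = 0.0103), named after their values were seen. E-proteins pair with TWIST factors. The remaining E-protein gene of the list, Tcf3, was not called without that library (-0.10, limma adjusted p = 0.35) or with it (-0.02, adjusted p = 0.898). Hmga2, a chromatin architecture gene active in mesenchymal tumours, was the most abundant. It had a mean of 103.7 FPKM (SD 1.68, n = 3) in Control and 107.5 (SD 4.19, n = 3) in treated cells. Prrx1, a homeobox factor of mesenchyme, had 40.8, 40.4 and 40.6 FPKM in Control and 48.5, 52 and 38.7 FPKM in RT-MPs, a log2 change of 0.18 (adjusted p = 0.328). Replicates 1 and 2 of the treated group lay above Control and replicate 3 below it, and without replicate 3 it was the gene called higher, at 0.30 (adjusted p = 0.00937). The third SNAIL family gene Snai3, and Scrt2 and Gsc, were listed at 0 in all libraries, so Snai1 and Snai2 were the SNAIL genes detected.

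Corepressors and turnover factors through which SNAIL and ZEB proteins act or are degraded were all expressed, with 20 of 20 tested. Of these 1 was called lower, 0 higher and 19 were not called, with a median of -0.15. That share of 5% is near the 3.99% called over all tested genes. An unadjusted limma p under 0.05 was seen for 4, all with lower means, voom called 2, and without RT-MPs replicate 3 there were 3 called lower. Among all genes 3247 of 11915 had such a p, voom called 800 of 11910, and 21.4% were called without that library. Hdac1, a histone deacetylase recruited by SNAIL complexes, went from 30.7, 29.1 and 30.9 FPKM to 25.2, 24.5 and 22.9 FPKM. Its log2 change was -0.31 (SE 0.06, limma adjusted p = 0.047). This call was lost under median-ratio scaling (adjusted p = 0.0732), quantile normalization (0.0529) and a fit with no trend (0.0572). Its paralog Hdac2 had 47.0 ± 1.42 FPKM in Control, had 40.1 ± 6.37 in treated cells and was not called (-0.24, adjusted p = 0.24).

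Most epithelial genes were at or below the level needed for testing. Of 19 ETS and other epithelial transcription factors 6 were tested and none was called (median -0.13). Of these 2, Elf2 and Foxa2, both with lower means, had an unadjusted limma p under 0.05, and voom called 0. Without RT-MPs replicate 3 there was 1 called higher, Klf5 (0.35, limma adjusted p = 0.0384), and 1 lower, Elf2 (-0.23, adjusted p = 0.0308). For this list and the next, the all-gene values were 3247 of 11915 by unadjusted p and 800 of 11910 by voom. Without RT-MPs replicate 3 the all-gene share called was 21.4%. Of them Elf4 at 14.7 ± 0.470 FPKM and Elf2 at 6.78 ± 0.295 FPKM in Control were the most abundant. The epithelial factors Elf5, Ovol2, Esrp2 and Cdx2 were listed at 0 in every library. The epithelial ETS gene Ehf did not exceed 0.0295 FPKM. Other factors of the list were expressed, with Klf5 at a mean of 4.61 FPKM in Control, above Elf3, Klf4 at 2.85 and Foxa2 at 1.21 FPKM, all named after their values were seen. Of 30 epithelial junction and keratin genes 8 were tested and none was called (median -0.08), while 2 had an unadjusted limma p under 0.05 and voom called 1. Without RT-MPs replicate 3 there was 1 called higher, as there was under median-ratio scaling and under quantile normalization. Those 2 scalings called 365 and 348 of all 11915 tested genes. A further 8 genes, among them Epcam and Cldn4, were listed at 0 throughout. Krt8, a keratin of simple epithelia, was an exception, with 167.9 ± 5.60 FPKM in Control libraries and 149.6 ± 8.92 in treated ones. Its log2 change was -0.17 (limma adjusted p = 0.166), and the tight junction scaffold gene Tjp1 had -0.17 (adjusted p = 0.493).

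Of 16 cadherin, catenin and related junction genes 7 were tested, none was called, and the median was -0.14. The 7 were 3 catenin genes, 3 nectin genes and the nectin partner Afdn, and no cadherin gene. An unadjusted limma p under 0.05 was seen for 2 of them, and voom called 0. All genes together gave 3247 of 11915 and 800 of 11910, and 21.4% were called without RT-MPs replicate 3. Ctnnb1, the gene of beta-catenin that links cadherins to actin and signals in the Wnt pathway, had 138.6 ± 3.29 FPKM in Control libraries and 136.8 ± 8.57 in treated ones. Ctnna1 had 62.4 ± 0.994 and 52.9 ± 5.99 FPKM (log2 change -0.24, limma adjusted p = 0.145). It was the 1 gene of the list called without RT-MPs replicate 3, at -0.15 (adjusted p = 0.0281). Among other cadherin genes Cdh3 and Cdh6 were listed at 0, and the mesenchymal Cdh11 did not exceed 0.269 FPKM.

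Of the 31 mesenchymal matrix and cytoskeleton genes reported here 20 were tested. Of these 2 were called lower, 10% against 3.99% of all tested genes, and 18 were not called, with a median of -0.02. Without RT-MPs replicate 3, where 21.4% of all tested genes were called, 4 were called higher and 3 lower. An unadjusted limma p under 0.05 in all 6 libraries was seen for 7, 3 with higher and 4 with lower means, and for 3247 of all 11915 genes. Thbs1, the gene of the matrix glycoprotein thrombospondin 1, fell from 13.3 ± 1.23 to 6.54 ± 1.54 FPKM (log2 change -0.94, limma adjusted p = 0.0375). Sparc, a collagen-binding matricellular gene, fell by 0.41 (adjusted p = 0.0293). The fibronectin gene Fn1 and the stromelysin gene Mmp3 were the most abundant and were not called (adjusted p = 0.488 and 0.142). Fn1 had 248.5, 269.6 and 260.5 FPKM in Control and 311.5, 307.3 and 237.8 FPKM in RT-MPs. Treated replicates 1 and 2 lay above Control and replicate 3 below it. Without replicate 3 Fn1 was called higher at 0.25 (adjusted p = 0.0136), as was Mmp3 at 0.18 (adjusted p = 0.0271). The smooth muscle genes Acta2 and Tagln did not exceed 0.262 and 0.13 FPKM.

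EMT-inducing ligands and receptors had 1 called member among 19 tested of 26 and a median of -0.14. That share of 5.26% is near the 3.99% over all tested genes. An unadjusted limma p under 0.05 was seen for 6, 2 with higher and 4 with lower means, voom called 2, and without RT-MPs replicate 3 there were 2 called higher and 4 lower. Among all genes these were 3247 of 11915, 800 of 11910 and 21.4% called. Tgfb1, the gene of the EMT-inducing cytokine TGF-beta 1, rose from 13.4, 13.6 and 12.9 FPKM to 17.0, 17.2 and 19.0 FPKM (log2 change 0.39, SE 0.06, limma adjusted p = 0.0375). The co-receptor gene Tgfbr3 at 69.4 ± 1.44 FPKM in Control and the receptor gene Fgfr1 at 65.4 ± 1.32 were the most abundant, with changes of 0.06 and -0.23 that were not called (adjusted p = 0.709 and 0.0693). The 7 tested intermediate filament and linker genes of 9 had a median of -0.28, against -0.09 over all tested genes, 6 with lower means. Of the 7, 1 was called, against 3.99% of all tested genes. This was Plec, which encodes the linker plectin and fell by 0.32 (limma adjusted p = 0.0466). The call was lost under median-ratio scaling (adjusted p = 0.0677), quantile normalization (0.0529) and a fit with no trend (0.0544). The other 6 were not called, with or without RT-MPs replicate 3, with Lmna and Nes the most abundant at 61.4 ± 1.92 and 27.7 ± 0.334 FPKM in Control. Like the member calls, those in the lists depended on single libraries. Leaving out any 1 library other than RT-MPs replicate 3 ended the calls of Hdac1, Sparc, Tgfb1 and Plec, with adjusted p between 0.0581 and 0.236, while each kept its sign. The call of Thbs1 ended without Control replicate 1, 2 or 3 or RT-MPs replicate 2 (adjusted p up to 0.195).

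**Figure D5:**
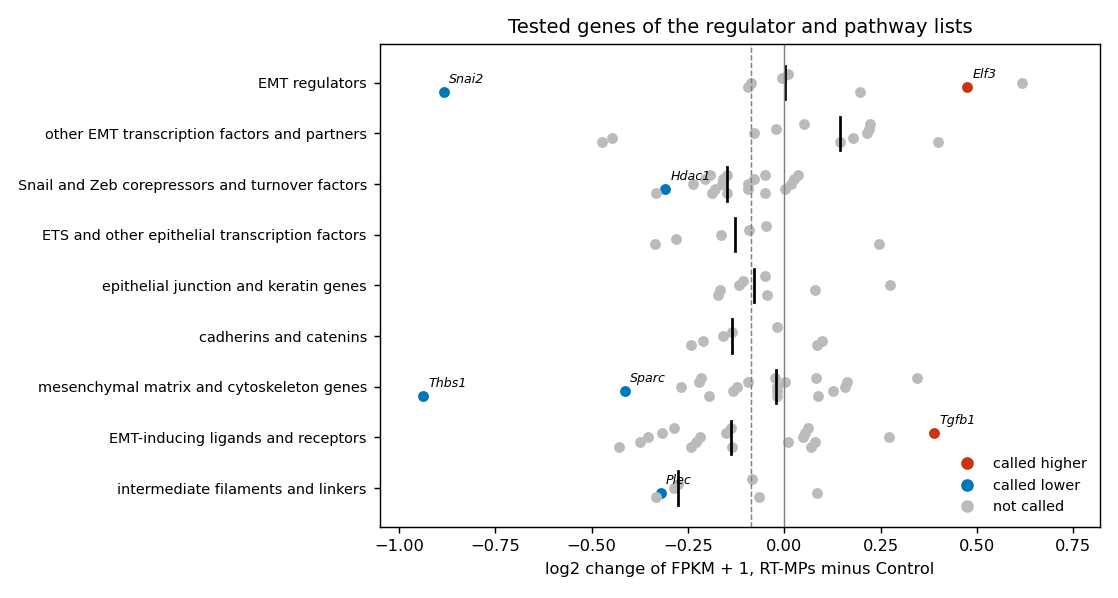
Log2 change of FPKM + 1, RT-MPs minus Control, of each tested gene in the regulator and pathway lists. Red points were called higher and blue points lower by limma, grey points were not called, black ticks are list medians and the dashed line is the median of all tested genes, -0.09. Called genes lie on both sides of 0, with Thbs1 at -0.94 and Elf3 at 0.47.

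Markers of the cell types the cultures could hold were read beside these values. Of 6 markers of epithelium 2 were tested and none was called, 1 with an unadjusted limma p under 0.05. Epcam and Cldn4 were at 0, and the summed level was 170.9 to 182.2 FPKM in Control and 148.9 to 167.4 in RT-MPs, nearly all of it Krt8, while Krt18 had 6.03 to 8.16 FPKM in the 6 libraries. Of 8 markers of lung epithelium the 1 tested, Napsa, was not called (unadjusted p not under 0.05), Nkx2-1, Sftpa1 and Scgb1a1 were at 0, Foxj1 did not exceed 0.0608 FPKM and the sum of all 8 was 1.38 to 2.20 FPKM, most of it from that gene. Of 8 markers of fibroblasts 5 were tested and 1, Dpt, was called, falling from 91.6 ± 2.73 to 65.8 ± 4.32 FPKM (limma adjusted p = 0.0293). The median of the 5 was -0.35 against -0.09 over all tested genes, and 4 had an unadjusted limma p under 0.05 (3 lower, 1 higher). Voom called 2, and without RT-MPs replicate 3 there were 1 called higher and 3 lower. For comparison, 3.99% of all tested genes were called, and 3247 of 11915 had an unadjusted p under 0.05. Voom called 800 of 11910, and 21.4% were called without RT-MPs replicate 3. Dcn had 38.6 ± 0.349 and 43.6 ± 1.91 FPKM, and Lum, named after its value was seen, had a log2 change of -0.40 (adjusted p = 0.056). Their summed level was 154.2 to 161.4 FPKM in Control and 127.9 to 137.8 in RT-MPs. Of 9 markers of leukocytes Cd3e, Adgre1 and Csf1r were at 0, and Ptprc did not exceed 0.006 FPKM and Lyz2 0.807 FPKM. Cd68 was the 1 tested leukocyte marker and rose from 30.2 ± 2.41 to 39.3 ± 0.662 FPKM (limma adjusted p = 0.0446), and the summed level was 28.9 to 33.3 in Control and 39.2 to 40.9 in RT-MPs. The calls of Dpt and Cd68 were lost without any 1 Control library or RT-MPs replicate 2, and that of Cd68 also without RT-MPs replicate 1 (adjusted p up to 0.222). Few genes of any kind were called there: 0, 2 and 0 of 11915 without Control replicates 1 to 3 in turn. Without RT-MPs replicate 1 and 2 in turn there were 74 and 10. The 6 markers of endothelium, Kdr and Vwf among them, summed to at most 0.423 FPKM. In bulk samples a change in the share of cells and a change in RNA per cell cannot be told apart, and the part of these markers in the members' changes was not tested.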

How the data were processed

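Each library's deposited table holds FPKM computed by the authors for 54446 genes. Reads were aligned with HISAT2 to mm10, per the submitters' processing notes, and RNA was made into libraries with a stranded mRNA kit, per the labels' protocols. Not given in the sources used here were versions, gene counter, annotation and use of strand. Gene positions and exon lengths came from GENCODE M21, which held 54409 of the identifiers. FPKM multiplied by exon length and a fitted library total gave whole reads within 0.1 for 98.4% to 98.6% of the values checked (7750 to 9746 per library), and these totals serve as depth. Genes with a mean of at least 1 FPKM were tested as log2(FPKM + 1), a scale that understates the change of low genes, with limma 3.58.1 (lmFit, eBayes with trend) in R 4.3.3, two-sided, with Benjamini-Hochberg adjustment over 11915 genes. The fit was also run on data simulated from the Control means with no outlying library, which does not show how it performs on these libraries. Permutation tests ran in scipy 1.17.1 (Python 3.11.15). Members and gene lists were chosen with earlier results of these data known. Named genes were all members, up to 4 called and the 2 most abundant genes of each other list, and the 3 genes most correlated with each called member. Others named were chosen after their values were seen. Alternatives were other pseudocounts (0.1 and 5), filters, scalings, fit options, voom on recovered reads, a replicate block and leaving out each library. A gene of the mesenchymal list is not reported here and was left out of that list's counts and median after its values were seen, but not out of the fit.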

Additional observations from a re-analysis of the deposited data

How the results depend on the processing

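Snai2 kept its negative and Snai1 and Elf3 their positive sign in every alternative in which each was tested, but the calls depended on the settings. The number of genes called, 476 by default, was 26 with no filter, 46 after rescaling to a common sum (TPM), 0 with the replicate block, 4576 with arrayWeights and 800 with voom on recovered reads, and it ranged from 0 to 2548 with a library left out. Of the regulators, 2 by default, 1 was called with a pseudocount of 5, a mean of at least 5 FPKM (where Elf3 and Zeb2 were not tested), median-ratio scaling, quantile normalization, trend=FALSE or robust=TRUE, and 0 with no filter, TPM or the replicate block. With a library left out it was 0 to 3, and 3 with arrayWeights. Snai2 was not called with no filter (-0.88, adjusted p = 0.0584), TPM (-1.22, adjusted p = 0.179) or the replicate block (-0.88, adjusted p = 0.0891), and ranged from -0.96 to -0.81 with a library left out. Elf3 was not called with a pseudocount of 5 (0.26), no filter (0.47), median-ratio scaling (0.55), TPM (0.27), quantile normalization (0.58), the replicate block (0.47), trend=FALSE (0.47) or robust=TRUE (0.47), with limma adjusted p between 0.0503 and 0.646, and ranged from 0.39 to 0.54 with a library left out. Snai1 was called with arrayWeights (0.44) and ranged from 0.44 to 0.71 with a library left out. Among members not called, Twist1 changed sign with TPM (-0.11) and arrayWeights (-0.0091), Twist2 with median-ratio scaling (0.084) and quantile normalization (0.066), Zeb2 with quantile normalization (0.013), and Vim with TPM (-0.30) and quantile normalization (-0.047). With a library left out Twist1 ranged from -0.031 to 0.31, Twist2 from -0.16 to 0.082, Zeb1 from -0.21 to 0.044 and Vim from -0.0027 to 0.025. The log2 difference of the Zeb1 to Zeb2 ratio ranged from -0.041 to 0.060. The FPKM of RT-MPs replicate 3 summed to 585752, against 296966 to 303798 in the other libraries, so TPM lowered all values of that library relative to the rest. The median over all tested genes became -0.38 under TPM. Of the tested members only Snai2 and Zeb1 (-0.39) lay below it. The split of calls was 154 higher and 322 lower by default and 225 and 140 with median-ratio scaling, 195 and 153 with quantile normalization. The correlations of deviations from group means between same-numbered libraries were 0.0959, -0.082 and -0.0288. Deviations within a group of 3 sum to 0, so these values cannot decide whether replicate numbers pair the libraries. Leaving out a library also removes residual degrees of freedom, and other causes were not tested.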
